A study of Mus musculus with 47 samples.

Results

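The duodenum of mice without a gut flora was compared with that of mice with one, separately for the light and the dark phase of the day, and the difference between the 2 phases was tested gene by gene. Of the 47 libraries of the series, the 24 from duodenum were used, chosen by their tissue label. All came from male C57BL/6J mice of 15 to 16 weeks that ate ad libitum. The 12 conventionally raised (convR) libraries and the 12 germ-free (GF) libraries were collected at zeitgeber times (ZT, hours of the daily light cycle) 2, 6, 10, 14, 18 and 22, with 2 libraries per status and time. ZT2, ZT6 and ZT10 were taken as light and ZT14, ZT18 and ZT22 as dark, which gave 6 libraries for each status in each phase. No genotype or drug separated the groups, and the labels do not say whether 2 libraries of one time came from separate animals, so the p-values measure the spread between libraries.

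As background, the small intestinal epithelium senses bacteria through pattern recognition receptors and the transcription factor NF-kappaB, and answers with chemokines, oxidases and antimicrobial proteins. Flora also draws lymphocytes and plasma cells into the mucosa, so bulk RNA from GF gut holds less of their transcripts. In bulk samples fewer cells of a type and less RNA per cell cannot be told apart. The intestine has a circadian clock, in which Clock and Arntl (Bmal1) drive the Per, Cry and Nr1d genes that feed back on them, and mice eat mostly in the dark.

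Each library held 22.6 to 41.1 M counted reads, with a median of 32.7 M (M, 1000000 reads). The duodenal regulators Gata4 and Pdx1 averaged 145 and 45.9 CPM (counts per 1000000 counted reads, scaled between libraries), while the ileal markers Fabp6 and Slc10a2 averaged 0.97 and 0.86 CPM. Slc51a, on the same ileal list, held 68.3 to 206 CPM. Sums over 10 duodenum identity genes averaged 791 CPM in convR light, 1332 in GF light, 749 in convR dark and 1543 in GF dark. Single libraries overlapped widely, from 431 to 2193 CPM in convR light and 497 to 2994 in GF light. Whether the sampled stretch of duodenum differed was not tested. Markers of pancreas and stomach, organs that adjoin the duodenum, were uneven. Summed over 17 acinar pancreas genes they came to 516 to 3592 CPM in convR light, 1267 to 12050 in GF light, 692 to 7498 in convR dark and 1311 to 14170 in GF dark. That list holds Zg16, also a goblet cell gene, so its lower sums do not measure pancreas. In GF ZT2 replicate 1 the list averaged 78.5 CPM, but the markers particular to pancreas averaged 0.81 CPM. By a mean above 100 CPM of the markers particular to pancreas or to stomach, or by a scaling factor above 1.2, 7 libraries stood apart. They are convR ZT6 replicate 1, both convR ZT14 libraries, convR ZT22 replicate 2, GF ZT6 replicate 1 and both GF ZT22 libraries. The cut was set after the data were seen, and some kept convR libraries lay close under it. Their markers particular to pancreas averaged 98.9 CPM in ZT2 replicate 2, 95.3 in ZT6 replicate 2 and 86.3 in ZT18 replicate 2. Cela2a, a pancreatic elastase, and Muc6, a mucin of stomach and Brunner glands, had phase differences of -7.78 and -10.3 log2, and neither passed. Results are given below with all 24 libraries, and without those 7 where that moved them. Leaving them out kept 5 libraries of each status in light but only 3 convR and 4 GF libraries in dark.

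The first comparison asked what the absence of flora changed in each phase. In light, 5884 of 18854 tested genes passed an adjusted p of 0.05 (edgeR quasi-likelihood test with Benjamini-Hochberg adjustment), which is 31.2% of those tested, with 2775 higher in GF (14.7%) and 3109 lower (16.5%). In dark, 4444 passed (23.6%), with 1964 higher (10.4%) and 2480 lower (13.2%). Among genes at a mean of 2 CPM or more, predicted genes, pseudogenes, small RNAs and receptor segments left out, that passed with 1 sign at all 3 times of a phase, the 5 largest falls in each phase included Reg3g, Nos2 and Slc5a8, and the 5 largest rises included Cyp2c38, Cyp2c29, Gpr151 and Thsd7b. A change of at least 1 log2 unit was found among the passing genes for 378 higher and 704 lower in light, and for 260 higher and 534 lower in dark. The 6 GF libraries lay wholly above the 6 convR libraries for 941 genes (4.99%) in light and wholly below them for 1126 (5.97%), against 642 (3.41%) and 938 (4.98%) in dark. With the 7 libraries left out, 6933 of 19118 genes passed in light, 3461 higher and 3472 lower. In dark 1843 passed then, 937 higher and 906 lower. Dark counts of the gene lists below are to be read beside that drop over all genes.

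The direction of change was largely shared. Both phases called 3639 genes, 61.8% of the light calls and 81.9% of the dark calls, and every one of the 3639 had the same sign in both. Of the genes called in light alone, 1152 higher and 1093 lower, 97.6% had the same sign in dark, and 54 had the opposite sign. Of those called in dark alone, 341 higher and 464 lower, 96.8% had the same sign in light, and 26 had the opposite sign. Over all 18854 genes, called or not, 82.4% (15541) had the same sign in both phases. The light calls had a median absolute change of 0.51 log2 in light and 0.40 in dark. The dark calls had a median of 0.51 in dark and 0.50 in light. Over all 18854 genes, the light and dark log2 changes correlated with a Pearson coefficient of 0.82 and a Spearman coefficient of 0.81. That is a description across genes, which are not independent replicates; the 2 contrasts share no library but share the scaling and the dispersion estimate.

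**Figure D1:**
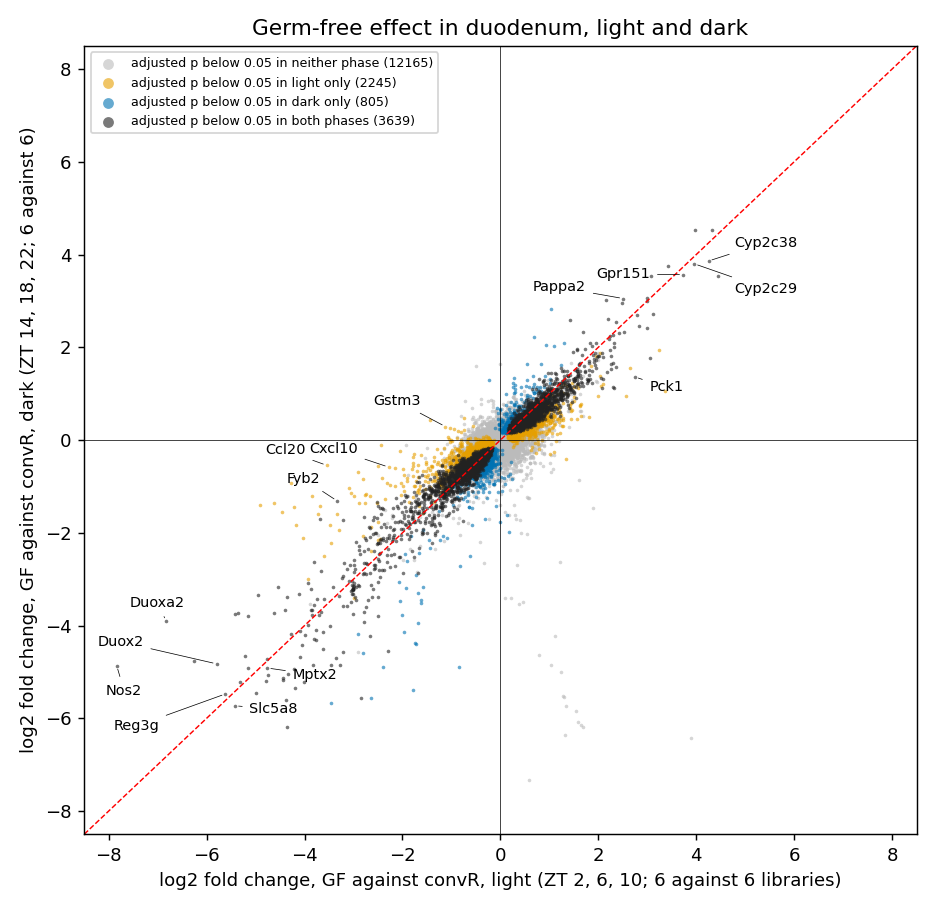
Each point is 1 of 18854 genes, with the log2 fold change of GF against convR duodenum in light on the x axis and in dark on the y axis, and the dashed line marks equal change. The 3639 genes called in both phases lie along the line in the lower left and upper right, and the grey points at the lower right, called in neither phase, include pancreas and stomach genes.

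The second comparison, the one the division into phases is for, asked whether the GF change itself differed between dark and light. No gene passed (0 of 18854, 0%) by the edgeR quasi-likelihood test, and DESeq2 and limma-voom also called 0. At an unadjusted p of 0.05 edgeR gave 396 genes (2.1%), DESeq2 399 and limma-voom 398. That share is below what a level of 0.05 gives when no gene differs. The model has 1 GF effect per phase, so a shift at 1 time only counts as spread. The 0 calls therefore do not show that no gene differs between phases. Without the 7 libraries edgeR gave 1307 of 19118 genes at that level, and again none passed. With all libraries the smallest p was 0.000244, for Mvd, with an adjusted p of 0.9999. Of the 396, 275 had the larger change in light and 121 in dark, with 200 differences (dark minus light) above 0 and 196 below. Only 157 of the 2245 genes called in light alone (6.99%) and 59 of the 805 called in dark alone (7.33%) reached that unadjusted level.

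The precision of that comparison can be stated. The median standard error of the difference was 0.19 log2, or 0.15 for the 13571 genes at a mean of 2 CPM or more, against 0.14 for the change within either phase. For 12675 of those genes (93.4%) the 95% interval of the difference lay within 1 log2 unit of 0, and for 8771 (64.6%) it lay within 0.5.

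The genes below are those with the smallest p for the difference, given as measured, since none passed. Mvd (chr8:122433601-122443422, minus strand, mm10) encodes mevalonate diphosphate decarboxylase of the cholesterol pathway. In light it ran from 10.3 to 19.3 CPM in convR (median 14.3) and from 7.66 to 10.5 in GF (median 7.81). In dark convR held 8.31 to 13.2 CPM (median 11.5) and GF 9.04 to 11.5 (median 10.8). The light groups overlapped only in the lowest convR and the highest GF library, and the dark groups overlapped throughout. The fall in light was -0.81 log2 (SE 0.12, adjusted p = 3.64e-05), the dark change was -0.08 (95% interval -0.32 to 0.16), and the difference was 0.72 (SE 0.16, 95% interval 0.38 to 1.06). Dark minus light was -0.40 log2 in convR and 0.33 in GF, neither past the adjusted test. With the ZT2 libraries left out, Mvd was the 1 gene to pass, with a difference of 0.94 and an adjusted p of 0.0434. In ileum, fitted separately, its phase difference was 0.08.

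Gstm3 (chr3:107963696-107969283, minus strand), a glutathione S-transferase that conjugates electrophiles, was the next by p. The light libraries held 359 to 721 CPM in convR (median 433) and 161 to 284 in GF (median 228), with no overlap. The dark libraries held 93.5 to 372 CPM in convR (median 199) and 186 to 278 in GF (median 232), and the groups overlapped. It fell in light (log2 -1.12, SE 0.25, adjusted p = 0.00212), and in dark the change was 0.29 (95% interval -0.22 to 0.80). The phase difference was 1.41 (SE 0.35, unadjusted p = 0.000629), and 1.92 without the 7 libraries. Dark minus light was 0.06 log2 in GF and -1.36 in convR.

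Cyp1b1, a cytochrome P450 that oxidises aromatic compounds and steroids, had medians of 9.41 CPM in convR light and 5.49 in GF light, against 6.71 and 7.26 in dark. It fell in light (log2 -0.81, SE 0.13, adjusted p = 7.99e-05), and its dark change was -0.13 (95% interval -0.39 to 0.13). Fyb2, an adaptor protein of the FYB family, ranged from 2.36 to 21 CPM in convR light and from 0.43 to 0.84 in GF light, against 1.29 to 3.45 and 0.60 to 1.2 in dark. It did not overlap between statuses in either phase and fell in both (log2 -3.34 in light and -1.31 in dark, adjusted p = 1.15e-05 and 0.0195), a difference of 2.03 (SE 0.56, unadjusted p = 0.00184). Slc19a2, the thiamine transporter, rose in both phases. It went from a median of 19.5 CPM in convR to 56.1 in GF in light (log2 1.46, SE 0.13, adjusted p = 2.07e-07) and from 25.3 to 46.5 in dark (log2 0.82, SE 0.13, adjusted p = 0.000127), with no overlap in either phase.

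Of the genes with the larger change in dark, Rgn (chrX:20549787-20562089, plus strand), which encodes the calcium-binding protein regucalcin, had the smallest p. It held 6.87 to 9.46 CPM in convR light and 11.8 to 17.4 in GF light, against 5.64 to 7.47 and 12.6 to 21.7 in dark. All GF libraries were above all convR libraries in both phases. It rose by 0.78 log2 in light and 1.32 in dark (SE 0.12 each, adjusted p = 5.14e-05 and 3.48e-07), a difference of 0.54 (95% interval 0.20 to 0.88, unadjusted p = 0.00347). Plxdc2, a plexin domain protein, rose in dark (log2 0.56, adjusted p = 0.00127), where no GF library reached down to the convR range, and measured 0.08 in light (95% interval -0.16 to 0.32). Traip, an E3 ubiquitin ligase of the replication stress response, fell in dark (log2 -0.68, adjusted p = 0.000346), again without overlap, and measured -0.19 in light. Rnd3, a small GTP-binding protein, rose in dark (log2 0.34, adjusted p = 0.0114) and measured -0.03 in light, and Idi1, isopentenyl-diphosphate isomerase, rose in dark (log2 0.26, adjusted p = 0.0435) and measured -0.10 in light. For the last 2 genes the libraries of the statuses overlapped in both phases.

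**Figure D2:**
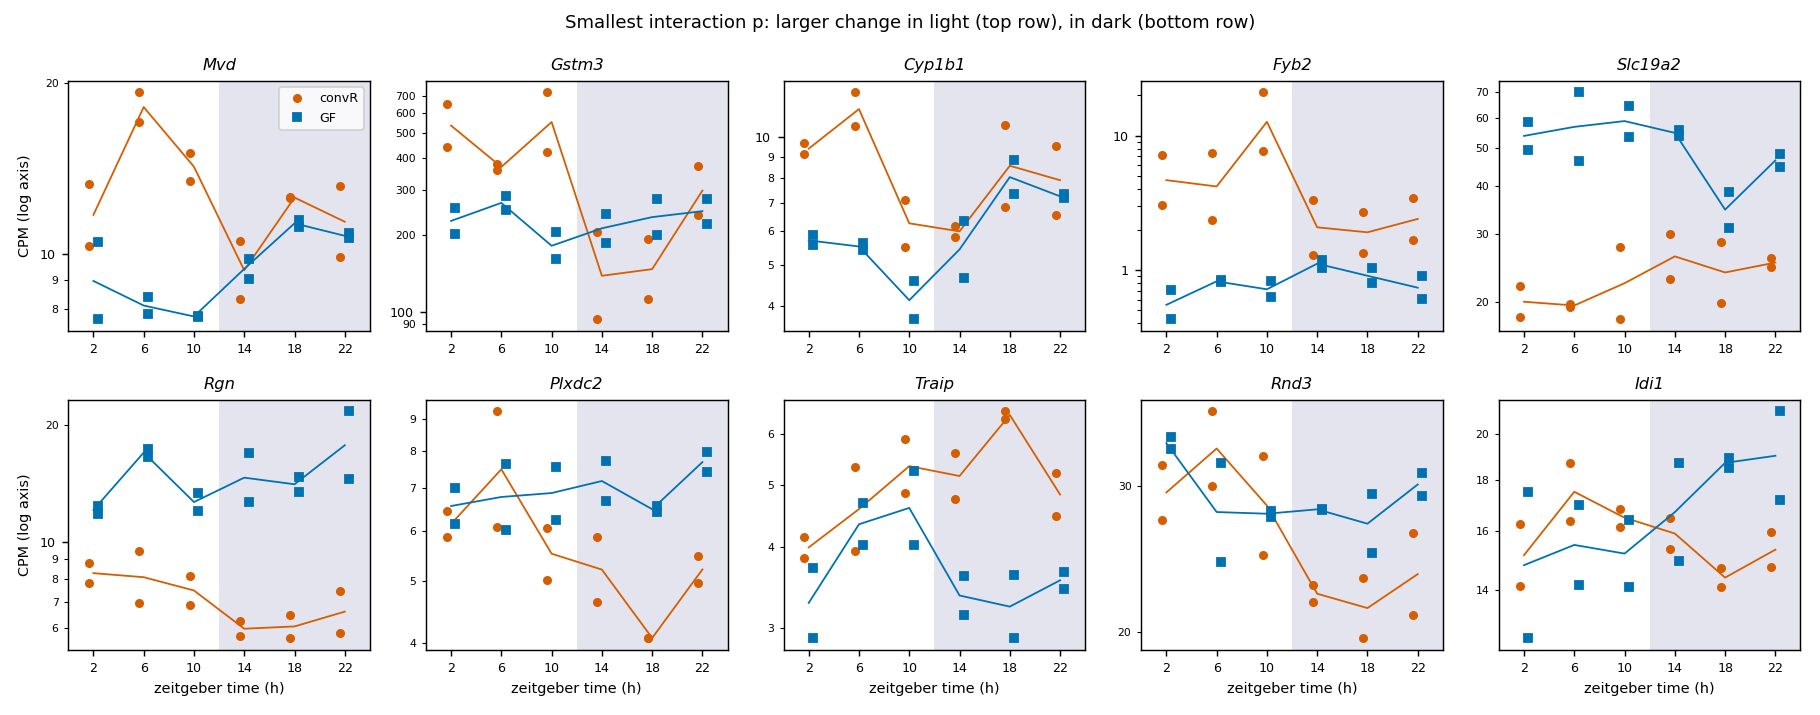
CPM on a log axis against zeitgeber time in hours for 10 genes, the 5 smallest unadjusted p for the difference in each direction among the genes ranked. The larger change is in light for Mvd, Gstm3, Cyp1b1, Fyb2 and Slc19a2, and in dark for Rgn, Plxdc2, Traip, Rnd3 and Idi1. Points are single libraries, lines join the geometric mean of 2 libraries, and shading marks the dark hours; none of the 10 differences passed the adjusted test.

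Mvd and Idi1 both belong to a list of 25 cholesterol synthesis genes. In light 6 of 25 rose and 2 fell (Mvd and Sqle, squalene epoxidase, log2 -0.35), with a median of 0.04 log2. In dark 10 rose and 0 fell, with a median of 0.26. For comparison, the median of all genes was -0.02 in either phase. Over all genes 14.7% rose and 16.5% fell in light, and 10.4% rose and 13.2% fell in dark. The 2 of 25 falling in light were not above that share. Those that rose in dark alone were Idi1, Lss (lanosterol synthase, -0.03 in light and 0.35 in dark), Mvk (mevalonate kinase, 0.25 and 0.48), Nsdhl (-0.02 and 0.24) and Tm7sf2 (0.18 and 0.29). The difference was above 0 for 21 of the 25, and 4 reached an unadjusted p of 0.05 (Mvd, Idi1, Lss and Nsdhl). Without the 7 libraries 7 rose and 1 fell in light, against 6 and 0 in dark. Of all 19118 genes tested then, 3461 rose and 3472 fell in light, and 937 rose and 906 fell in dark. The genes share a regulator, SREBP2, so they are not independent.

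Ccl20, Cxcl10 and Nfkbia had larger measured changes in light than in dark, and none of the differences passed the adjusted test. Their promoters are shown because they carry GGGA, any 4 bases and CC, the core letters of a kappaB site. The letters were searched on both strands in the 250 bases before the RefSeq start (GRCm38.p6), matches are in capitals, and 17.6% of 32851 mouse promoters of that length hold at least 1 match.
Ccl20, chr1:83116516-83116765, plus strand: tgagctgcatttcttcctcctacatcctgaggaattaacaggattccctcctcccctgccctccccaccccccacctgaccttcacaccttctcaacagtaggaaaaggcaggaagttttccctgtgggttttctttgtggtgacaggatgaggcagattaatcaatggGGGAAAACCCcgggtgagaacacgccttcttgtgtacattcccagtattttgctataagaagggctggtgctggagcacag
Cxcl10, chr5:92348890-92349139, minus strand: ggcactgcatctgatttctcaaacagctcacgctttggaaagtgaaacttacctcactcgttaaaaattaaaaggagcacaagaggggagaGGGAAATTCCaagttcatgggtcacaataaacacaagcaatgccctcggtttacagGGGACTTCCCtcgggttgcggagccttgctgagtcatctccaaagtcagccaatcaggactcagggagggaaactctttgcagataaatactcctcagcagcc
Nfkbia, chr12:55492648-55492897, minus strand: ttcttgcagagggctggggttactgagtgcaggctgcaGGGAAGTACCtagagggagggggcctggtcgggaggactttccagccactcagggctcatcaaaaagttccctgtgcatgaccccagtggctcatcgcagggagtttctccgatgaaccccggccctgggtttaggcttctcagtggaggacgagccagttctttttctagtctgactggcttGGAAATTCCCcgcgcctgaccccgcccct
Each is written 5′ to 3′ on the gene's own strand; the second match of Nfkbia reads on the opposite strand. The windows of Tnf and Zc3h12a did not hold these letters. Windows of genes that rose in GF, such as Cd36, Clock, Cry2 and Slc19a2, did hold them, so the letters are not particular to the genes shown. A match describes the letters only and no binding was measured.

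Ccl20 encodes the ligand of CCR6 that draws dendritic and B cells to the epithelium. Its convR light libraries held 4.22, 7.32, 44.5, 6.43, 149 and 10.3 CPM in order of time and replicate, whereas its convR dark libraries held 2.29 to 4.38 CPM. The GF libraries held 0.76 to 4.89 CPM in light and 1.47 to 2.83 in dark, so the statuses overlapped in both phases and the high values came from ZT6 replicate 1 and ZT10 replicate 1 of convR. It fell in light (log2 -3.55, SE 0.69, adjusted p = 0.00106) and measured -0.54 in dark (95% interval -1.88 to 0.80). The difference was 3 (95% interval 1.05 to 4.96, unadjusted p = 0.00481), or 2.05 without convR ZT10 replicate 1 and 2.70 without the 7 libraries.

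Cxcl10, a CXCR3 ligand that attracts T cells, ran from 3.42 to 30.0 CPM in convR light and from 1.01 to 2.94 in GF light without overlap, and from 2.71 to 3.24 against 1.06 to 3.38 in dark with overlap. It fell in light (log2 -2.28, SE 0.37, adjusted p = 0.000175) and measured -0.58 in dark (95% interval -1.34 to 0.17). The difference of 1.70 (unadjusted p = 0.00374) was 1.14 without convR ZT10 replicate 1, the 30.0 CPM library. Tnf, a cytokine of macrophages and other cells, was low, with medians of 3.30 CPM in convR light, 0.69 in GF light, 1.33 in convR dark and 0.61 in GF dark. It fell in light (log2 -1.97, SE 0.32, adjusted p = 0.000119) and measured -0.75 in dark (adjusted p = 0.0893), a difference of 1.21 (unadjusted p = 0.0132). Ccl28, which recruits IgA plasma cells, fell in both (log2 -1.44 and -0.83, adjusted p = 9.77e-07 and 0.000352).

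Nfkbia, which encodes the inhibitor IkappaB-alpha that retains NF-kappaB in the cytoplasm, ran from 55 to 150 CPM in convR light (median 86.6) and from 33.8 to 48.7 in GF light (median 43.0), without overlap. In dark the medians were 58.5 and 45.6 CPM, with overlap. The highest convR light values, 150 and 120 CPM, were those of ZT10 replicate 1 and ZT6 replicate 1, the libraries also highest for Ccl20. ZT6 replicate 1 stood apart. The fall of Nfkbia in light was -1.12 log2 (SE 0.17, adjusted p = 6.71e-05), and its dark change was -0.44 (adjusted p = 0.0619). Zc3h12a, the RNase Regnase-1 that degrades cytokine mRNAs, had no overlap in either phase, with medians of 42.1 and 15.2 CPM in light and 24.9 and 15.6 in dark. It fell in both (log2 -1.61 and -0.75, adjusted p = 2.38e-05 and 0.0128). Its difference of 0.86 (unadjusted p = 0.0088) came to 0.39 without the 7 libraries. Dark minus light was 0.03 log2 for Nfkbia, -0.01 for Zc3h12a and 0.12 for Tnf in GF, and -0.66, -0.87 and -1.09 in convR, none past the adjusted test. Tnf, Nfkbia and Zc3h12a were picked after their values were seen.

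**Figure D3:**
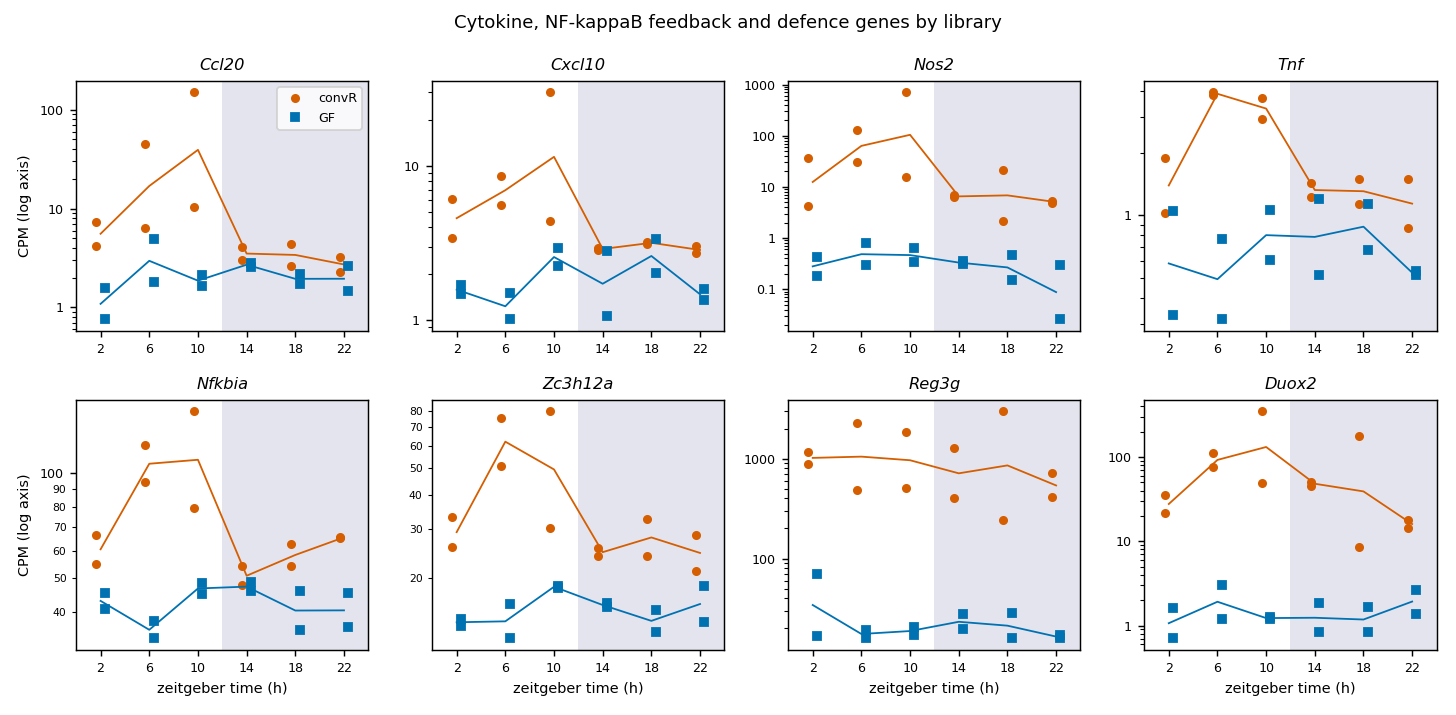
CPM on a log axis against zeitgeber time in hours for Ccl20, Cxcl10, Nos2, Tnf, Nfkbia, Zc3h12a, Reg3g and Duox2, with convR libraries as circles, GF libraries as squares, lines through the geometric mean of 2 libraries and the dark hours shaded. The highest convR points of Ccl20 (149 CPM), Cxcl10 (30.0 CPM) and Nos2 (701 CPM) are one library, ZT10 replicate 1, while all GF points of Reg3g (15.9 to 70.3 CPM) are below all its convR points (245 to 2998 CPM).

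The wider chemokine and cytokine list held 20 tested entries. In light 2 rose and 11 fell (median -0.69 log2), and in dark 1 rose and 6 fell (median -0.44), against 13 falling in light and 2 in dark without the 7 libraries. Il15, a growth factor of intraepithelial lymphocytes, rose in both (log2 1.26 and 0.87). Of 32 interferon response genes 14 fell in light (median -0.57) and 9 in dark (median -0.25), and all 9 were among the 14. The 5 called in light alone were Cxcl10, Ifit2 (log2 -1.78 in light and -0.36 in dark), Rsad2 (-0.88 and 0.05), Gbp7 (-0.55 and -0.16) and Gm43302 (-1.02 and -0.40). Without the 7 libraries 15 fell in light and 0 in dark, and the dark median was 0.06, so its sign changed. Among all genes 16.5% fell in light and 13.2% in dark, or 3472 and 906 of 19118 without the 7 libraries.

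The genes with the largest falls, among those at 2 CPM or more with 1 sign at all 3 times of a phase, fell in both phases. Reg3g (chr6:78466269-78468872, minus strand), a bactericidal lectin against Gram-positive bacteria, held 482 to 2289 CPM in convR light (median 1030) and 15.9 to 70.3 in GF light (median 18.3), and 245 to 2998 (median 561) against 15.9 to 28.2 (median 18.3) in dark. The groups were far apart in each phase. It fell in both (log2 -5.62 in light and -5.47 in dark, adjusted p = 2.40e-05 and 4.04e-05), and the difference was 0.14 with a 95% interval of -1.60 to 1.88. Reg3b, its relative, fell too (log2 -4.44 and -5.17). Duox2, the dual oxidase that makes hydrogen peroxide at the brush border, had medians of 62.6 and 1.23 CPM in light and 31.7 and 1.52 in dark, and fell in both (log2 -5.80 and -4.83). Slc5a8, which imports short-chain fatty acids with sodium, fell in both (log2 -5.42 and -5.73), as did Mptx2, a pentraxin of Paneth cells (log2 -4.76 and -4.92).

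Nos2, the inducible nitric oxide synthase, and Duoxa2, the maturation factor of Duox2, had wide phase differences with wide errors. Nos2 held 4.15 to 701 CPM in convR light (median 34.0) and 2.17 to 21.5 in convR dark (median 5.78), against 0.18 to 0.80 and 0.03 to 0.46 in GF. No GF library reached the convR range in either phase. It fell in both (log2 -7.84 and -4.87, adjusted p = 7.12e-05 and 0.0036), and the difference of 2.97 had a 95% interval of -0.66 to 6.60. Without convR ZT10 replicate 1 that difference was 1.40, and for Duoxa2 it went from 2.92 to 1.45. Of the 23 antimicrobial defence genes 15 fell in light (median -1.31) and 16 in dark (median -1.08), and all 15 were called in both. Leaving out the 7 libraries gave counts of 16 in light and 7 in dark, with 1 rising in each. Among 15 Paneth cell genes 14 fell in light (median -1.58) and 13 in dark (median -1.27), including Lyz1 (lysozyme, log2 -1.15 and -0.93) and Mmp7 (the protease that activates defensins, -1.95 and -1.81). Without the 7 libraries 15 and 1 fell, and the dark median was -1.08. Among all genes 16.5% fell in light and 13.2% in dark, or 3472 and 906 of 19118 without the 7 libraries. The 1 of 15 Paneth cell genes falling in dark was then near that background. Defensin genes, Reg3b and Reg3g, and the Cyp2c genes have close copies whose reads the counting could have divided.

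IgA plasma cell genes fell in both phases. Jchain, which joins IgA monomers, held 1117 to 2154 CPM in convR light and 112 to 339 in GF light, and 1150 to 2229 against 111 to 211 in dark. No library of the statuses overlapped. It fell in both (log2 -2.99 and -3.15, adjusted p = 1.30e-07 and 1.67e-07), and the difference was -0.16 with a 95% interval of -0.83 to 0.52. Igha, the IgA constant region, fell likewise (log2 -2.95 and -3.17), and so did Mzb1, a plasma cell chaperone (log2 -3.04 in both). The 17 genes of B and plasma cells all fell in light (median -2.99), and 12 fell in dark (median -2.05). Their per-gene phase differences had a median of 0.12 log2, with 10 above 0 and 7 below. The 5 called in light alone included Ms4a1, Cr2, Pax5 and Tnfrsf13c, genes of naive and follicular B cells, with log2 changes in light and dark of -4.90 and -1.40 for Ms4a1 (CD20), -4.63 and -1.36 for Cr2, -3.69 and -1.41 for Pax5 and -3.34 and -1.59 for Tnfrsf13c.

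Levels of those B cell genes varied between single libraries. Ms4a1 ran from 0.43 to 12.0 CPM in convR light and from 0 to 1.11 in GF light. In dark it was 0 to 15.7 CPM in convR, with the ZT22 libraries at 0.17 and 0, and 0.03 to 6.09 in GF, where ZT14 replicate 1 (6.09 CPM) and ZT18 replicate 1 (4.24 CPM) stood above the others. Its phase difference was 3.50 log2 (SE 1.65, unadjusted p = 0.05), and 2.48 without GF ZT14 replicate 1. Cxcl13, a chemokine of B cell follicles, held 1.52 to 7.29 CPM in convR light, 0.987 to 2.69 in GF light, 2.09 to 12.3 in convR dark and 1.68 to 5.25 in GF dark, where the same 2 GF libraries were the highest (5.25 and 4.05 CPM). Whether the sampled pieces of gut held lymphoid follicles was not tested.

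All 10 MHC class II genes fell in light (median -1.59) and 7 in dark (median -1.08), with Cd74, the invariant chain, at -1.66 and -1.35. Of 22 T cell and intraepithelial lymphocyte genes 16 fell in light (median -0.75) and 20 in dark (median -0.85); Cd3e, a chain of the T cell receptor complex, fell in dark (log2 -0.93, adjusted p = 0.00152) and measured -0.46 in light (adjusted p = 0.0736). Of 16 macrophage and dendritic cell genes 13 and 8 fell. Without the 7 libraries, the light counts were 10, 21 and 13 and the dark counts 0, 7 and 3 for these lists in turn, with dark medians of -0.86, -0.81 and -0.46. The B and plasma cell counts were then 17 in light and 7 in dark. Among all genes 16.5% fell in light and 13.2% in dark with all libraries, and 906 of 19118 fell in dark without the 7.

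The genes with the largest rises by that rule, Nek10 excepted, also rose in both phases. Cyp2c38 and Cyp2c29, cytochrome P450 enzymes of drug and fatty acid oxidation, had the largest rises of these genes in both phases. Cyp2c38 held 0.21 to 1.82 CPM in convR light and 15.1 to 24.4 in GF light, and 0.42 to 1.84 against 7.89 to 21 in dark. There was no overlap. It rose by 4.25 log2 in light (SE 0.33, adjusted p = 1.30e-07) and 3.86 in dark (SE 0.33, adjusted p = 4.75e-07), a difference of -0.39 with a 95% interval of -1.32 to 0.54. Cyp2c29 rose by 3.96 and 3.80 log2. Cyp2j6, an epoxygenase of arachidonic acid, was measured more tightly, with rises of 1.88 and 1.83 and a difference of -0.05 (95% interval -0.58 to 0.48). Gpr151, an orphan receptor, rose by 3.73 and 3.57 log2, Thsd7b by 3.42 and 3.75, and Pappa2, a protease of insulin-like growth factor binding proteins, by 2.51 and 3.05. Nek10, a kinase, rose in light (log2 3.24, adjusted p = 0.0145) and measured 1.93 in dark (adjusted p = 0.104), with libraries overlapping in both.

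Of 36 drug metabolism genes 16 rose and 4 fell in light (median 0.40), and 15 rose and 2 fell in dark (median 0.50). Without the 7 libraries 13 rose and 5 fell in light (median 0.21), and 11 rose and 0 fell in dark (median 0.56). With all libraries, the 15 that rose in dark were all called in light too. The 2 that fell in light alone were Gstm3 and Cyp2c55 (log2 -1.52 and -0.66). Among 25 genes of fatty acid oxidation and the nuclear receptor PPAR alpha 11 rose in light and 9 in dark, or 9 and 2 without the 7 libraries. The share rising among all genes was 14.7% in light and 10.4% in dark. Without the 7 libraries 937 of 19118 genes rose in dark, so 2 of 25 was near that background. Ppara itself rose in both (log2 1.09 and 0.64, adjusted p = 2.51e-05 and 0.00392). Cd36, a fatty acid translocase, rose by 1.59 and 1.46 log2, and Ucp2, a mitochondrial carrier, by 1.62 and 1.17. Pck1, the gluconeogenic enzyme PEPCK, rose in both (log2 2.75 and 1.36, adjusted p = 0.000164 and 0.0218), and its phase difference of -1.39 (unadjusted p = 0.0273) came to -0.13 without the 7 libraries. Slc51b, a subunit of the basolateral bile acid exporter, fell in light (log2 -1.21, adjusted p = 0.00122) and measured -0.29 in dark, a difference of 0.92 (95% interval 0.20 to 1.63) that was 1.65 without the 7 libraries.

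Of 19 clock genes, 7 rose and 2 fell in light (median 0.55 log2), and 3 rose and 2 fell in dark (median 0.31). Over all genes 14.7% rose and 16.5% fell in light, and 10.4% rose and 13.2% fell in dark, so the dark counts and the light falls were near that background. The absolute change was larger in light for 16 of the 19. Per1, a repressor of the clock, ran from 4.16 to 26.8 CPM in convR light and from 6.38 to 72.1 in GF light, and from 6.84 to 31.5 against 8.41 to 43.7 in dark, with overlap in both. It rose in light (log2 1.27, SE 0.32, adjusted p = 0.00663) and measured 0.31 in dark (95% interval -0.35 to 0.98), a difference of -0.96 (unadjusted p = 0.0476). Cry2, its partner repressor, rose in both (log2 1.23 and 0.60, adjusted p = 6.71e-05 and 0.02), a difference of -0.62 (unadjusted p = 0.0241). Clock, the activator, rose in both (log2 0.43 and 0.39), with a difference of -0.04 and a 95% interval of -0.22 to 0.14. Arntl did not pass in light (-0.50, adjusted p = 0.121) or dark (0.09).

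The clock output factors of the PAR bZIP family are known to follow the core clock. Hlf rose in both phases (log2 1.68 and 1.16, adjusted p = 0.0011 and 0.0132). Dbp and Tef rose in light (log2 1.42 and 0.95, adjusted p = 0.0337 and 0.00184) and measured 0.69 and 0.50 in dark (adjusted p = 0.358 and 0.0774). The GF minus convR difference in mean log2(CPM + 0.5) of Dbp was 0.52 at ZT2, 2.42 at ZT6, 1.11 at ZT10, 1.34 at ZT14, 0.95 at ZT18 and -0.88 at ZT22. For Per1 it was 0.45, 1.81, 1.26, 0.65, -0.34 and 0.55. ZT6 had the largest light difference for both, and there the GF libraries differed, with Per1 at 40.5 and 14.7 CPM and Dbp at 25.7 and 75.5. The first of these GF libraries is among the 7 that stood apart. The GF libraries at ZT14 differed more for Dbp (143 and 30.4 CPM). For Nr1d1 the GF libraries differed at ZT14 (61.8 and 20.7 CPM) and also at ZT6 (15.0 and 68.3 CPM). Without the 7, the clock counts were 7 rising and 2 falling in light and 1 and 1 in dark.

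**Figure D4:**
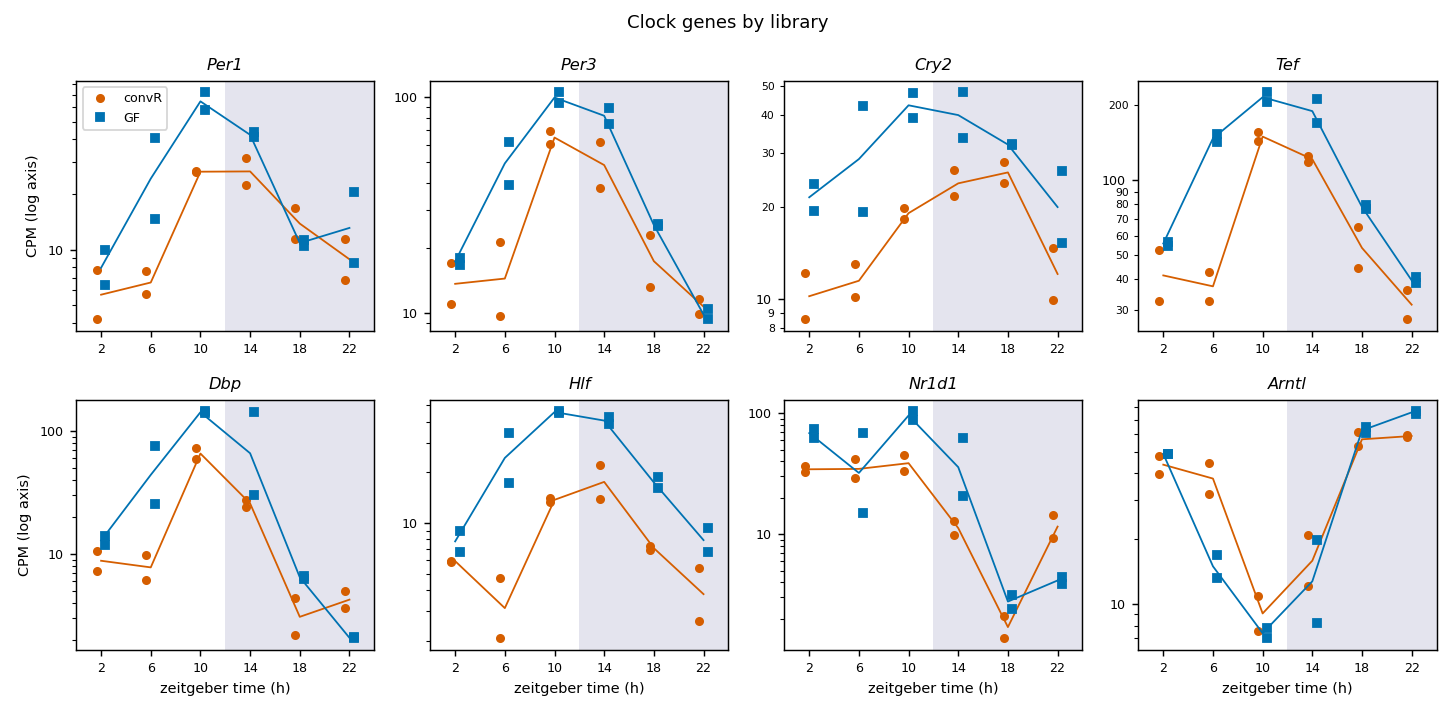
CPM on a log axis against zeitgeber time in hours for 8 clock genes (Per1, Per3, Cry2, Tef, Dbp, Hlf, Nr1d1, Arntl), with convR libraries as circles, GF libraries as squares, lines through the geometric mean of 2 libraries and dark hours shaded. The GF line of Dbp is above the convR line from ZT2 to ZT18 and below it at ZT22, and its GF libraries at ZT6 and ZT14 are spread.

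Of 18 immediate early genes, which respond within minutes to stimuli, 8 rose in light (Klf6, Klf4, Fosb, Btg2, Fos, Fosl2, Zfp36 and Junb) and 1, Klf6, in dark, and none fell. Fos rose in light (log2 1.09, SE 0.24, adjusted p = 0.00257) and measured 0.33 in dark (95% interval -0.17 to 0.83), with convR ZT6 replicate 1, a library that stood apart, the lowest of all at 12.6 CPM. Leaving out the 7 libraries, 5 rose in light and 0 in dark. Among all genes 14.7% rose and 16.5% fell in light, and 10.4% rose and 13.2% fell in dark. The 1 of 18 rising in dark was not above that share. Of 27 cell cycle genes 23 fell in each phase, 22 of them in both (medians -0.37 and -0.40), with Top2a, topoisomerase II alpha, at -0.50 and -0.60. Without the 7 libraries 23 of the 27 fell in light and 17 in dark (medians -0.33 and -0.43), while 906 of all 19118 genes fell in dark. The unfolded protein response list had 14 of 19 falling in light and 11 in dark, with 2 and 1 rising. Of 26 cytosolic ribosomal protein and elongation factor genes 13 fell in light (median -0.24) and 1 fell and 1 rose in dark (median -0.19); with the 7 libraries left out 21 fell in light and 0 in dark.

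**Figure D5:**
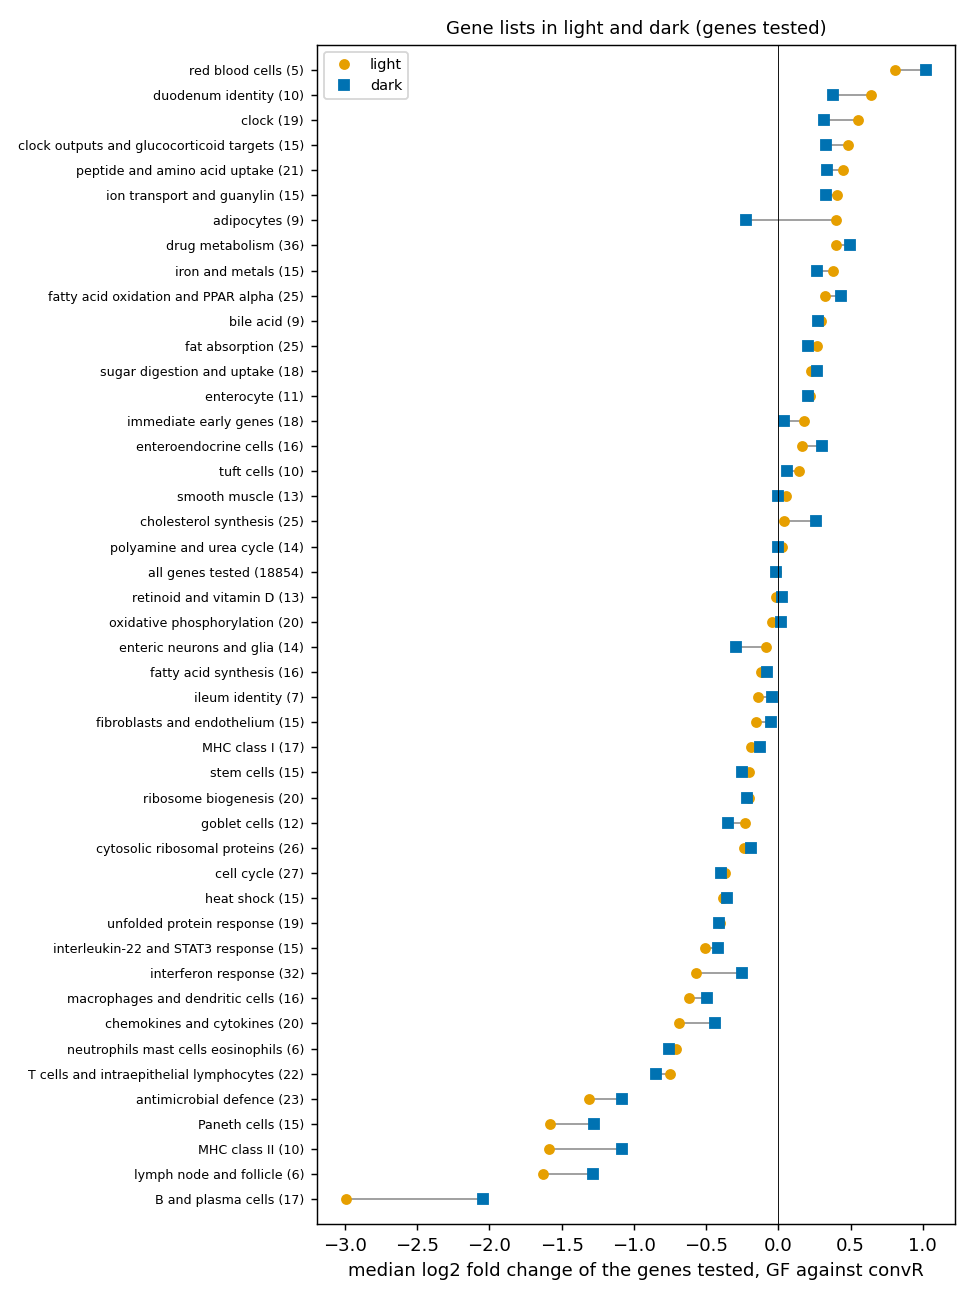
Median log2 fold change of GF against convR in light (circles) and dark (squares) for each gene list, with the number of tested genes in brackets; the pancreas acinar and stomach lists are left out of the plot because their values differ widely between single libraries. The B and plasma cell list has the widest gap between its 2 medians (-2.99 and -2.05), which fall on different genes. The median of its per-gene phase differences is 0.12 log2, with 10 above 0 and 7 below. The median of all genes is -0.02 in both phases.

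The third view compared dark with light within each status. In convR mice 0 genes passed by edgeR (0%, with 1257 or 6.67% at an unadjusted p of 0.05 and a smallest adjusted p of 0.0812), while DESeq2 called 48 and limma-voom 0. In GF mice 1 gene passed (0.0053%, with 1070 or 5.68% unadjusted), Lonrf3, a ubiquitin ligase, which was higher in dark (log2 0.88, adjusted p = 0.029), and DESeq2 called 12 and limma-voom 2. In ileum, fitted apart with 23 libraries, the phase difference of the GF effect was also called for 0 of 18944 genes by edgeR (0%, 621 at an unadjusted p of 0.05), with 4264 genes called in light and 5410 in dark. Nfkbia and Tnf, picked after their values were seen, had ileal differences of the same sign as in duodenum (0.42 and 1.45). That of Dbp was -1.73. None of these passed the adjusted test in ileum. The ileal difference of Mvd, given above, was much smaller than its duodenal difference. Because these genes were picked, their ileal values do not show whether the duodenal differences recur in ileum. The difference between tissues was not tested.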

How the data were processed

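Total RNA of 24 duodenum libraries had been sequenced after ribosomal depletion with a stranded kit, per the labels' protocols. The deposited table gives raw counts per gene over exons; the authors aligned with STAR 2.4.0i to mm10, per the submitters' processing notes. The counting program, annotation and strand handling were not given in the sources used here, so reads of overlapping genes and of close copies cannot be told apart. Of 38087 genes, 36308 matched GENCODE M21, which gave coordinates.

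Counts were filtered with filterByExpr (minimum count 10), scaled by TMM and fitted with edgeR 4.0.16 (R 4.3.3, robust quasi-likelihood) with a factor for each zeitgeber time and a GF effect within each phase, leaving 16 residual degrees of freedom. Tests were two-sided, with Benjamini-Hochberg adjustment over all genes and a threshold of 0.05. CPM are TMM-scaled. SE is the absolute log2 fold change over the root of F, and 95% intervals use the t distribution. A phase difference is the dark log2 fold change minus the light one. DESeq2 1.42.0, limma 3.58.1 (voom), other scalings, filters and designs, and leaving out libraries or times were alternatives. The fit was tested on simulated data, where most phase differences of 0.5 log2 were not recovered.

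Named genes, at a mean of at least 2 CPM, are the 5 smallest p for the phase difference in each direction, the 5 largest rises and falls in each phase, the clock list and at most 2 genes per list; Tnf, Nfkbia, Zc3h12a, Jchain, Igha, Cd74, Cyp2j6, Lyz1, Mmp7, Cd36 and Top2a were added after values were seen, as were list members named to show which genes a count holds. The members and the 47 gene lists were chosen with earlier results of these data known. Over all genes, deviations of same-numbered convR and GF libraries correlated between -0.09 and 0.30 at the 6 times. The duodenum identity genes differed by replicate number. Their mean was higher in replicate 2, as in convR ZT10 (219.3 against 52.06 CPM) and GF ZT14 (239 against 52.4 CPM). Only GF ZT6 went the other way (149.5 against 299.4 CPM). Whether the replicate number marks a set of samples was not tested. Depth was 22.6 to 41.1 M (1000000) counts per library. Promoter letters came from the RefSeq table (GRCm38.p6), which held 113 of 139 named genes.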

Additional observations from a re-analysis of the deposited data

Results flagged for a closer look

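In the 40 sets of 6 libraries examined for a value far from the others, 1 was found. For Mvd in GF light, GF ZT2 replicate 2 held 10.48 CPM and the nearest library 8.38 CPM, a gap of 0.715 of the group's range on the log2(CPM + 0.5) scale, against a critical value of 0.625. Chance flags about 1 in 20 such sets. Without that library the phase difference of Mvd was 0.84 log2, against 0.72 with it.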

How the results depend on the processing

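The phase difference was called for 0 genes in every alternative run but 1: with ZT2 left out, 1 gene (Mvd) passed. Leaving out single libraries gave 0 to 0 genes over 24 fits, with 319 to 828 at an unadjusted p of 0.05. That unadjusted count ran from 248 (no ZT18) to 1014 (no ZT6) with 1 time left out, and was 1307 without the 7 libraries. The light count ran from 4844 to 6013 and the dark count from 3392 to 5022 when single libraries were left out. Light calls fell to 2965 without ZT10, and dark calls to 1887 without ZT14, 1922 without ZT18 and 1843 without the 7 libraries that stood apart, an alternative chosen after seeing the data; each keeps fewer libraries. Scaling by library size alone moved the median of all genes to -0.15 log2 in light and -0.13 in dark, and the calls divided into 1472 higher and 4864 lower in light and 1048 and 3535 in dark, against 2775 and 3109, and 1964 and 2480, with TMM. In the labels, same-numbered libraries share only a number. With the replicate number as a block, 0 phase differences, 6291 light and 4786 dark genes were called, and 0, 5946 and 4558 with pairs of equal number and time.

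Dark against light in convR went from 0 genes to 4 (library size only), 7 (no filter), 48 (DESeq2), 6 (a mean for each of 12 groups), 14 (no ZT2), 1 (no ZT6), 5 (no ZT14) and 8 (no ZT22), and from 0 to 9 over single libraries left out. In GF it went from 1 gene to 0 (library size only, no time factor, no ZT10, no ZT18, no ZT22, and without the 7 libraries), 12 (DESeq2), 2 (limma-voom, robust option off, no ZT2), 5 (12 group means), 3 (no ZT6) and 38 (no ZT14), and from 0 to 10 over single libraries. The ileal phase difference went from 0 to 1 gene without a filter and by DESeq2, and 0 to 0 over 23 single libraries; the cause of these moves was not tested. Among 139 named genes, 5836 of 5837 phase differences kept their side of the threshold and 158, in 46 genes, changed sign; 155 light and 179 dark values dropped below it. Avil in dark, at 0.00 log2 with all libraries, ranged from -0.0797 to 0.258 over single libraries left out and was called at 0.26, without convR ZT14 replicate 1.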
